A study of Sus scrofa with 8 samples.

Results

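In 4 pig retinas injected with an AAV vector, CDKN1A RNA was detected in 1268 of 10960 Müller glia nuclei, and these positive nuclei were compared with CDKN1A-negative Müller nuclei of the same retina and depth. Müller glia are the radial glial cells of the retina, which clear glutamate and potassium from around neurons and respond to almost any retinal injury. CDKN1A encodes p21, an inhibitor of cyclin-dependent kinases that holds the cell cycle and is one of the best known genes switched on by p53. When DNA breaks or other stress stabilize p53, the protein binds response elements near its target genes, among them MDM2, the ubiquitin ligase that degrades p53 in turn, and genes of DNA repair and apoptosis.

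Single-nuclei RNA was measured in retinas of female Yucatan minipigs of 3 to 5 months of age, injected intravitreally in both eyes with AAV2.7m8/CAG-GFP, a vector whose ubiquitous CAG promoter drives GFP, at 5e11 vector genomes per eye, or with vehicle. All animals, vehicle included, had received Vitrase, a hyaluronidase, in both eyes 2 weeks earlier and weekly methylprednisolone from 2 days before dosing. The AAV groups were AAV week 2, which is the left (OS) and right (OD) retina of animal 7221, and AAV week 4, which is 1 left retina each of animals 7248 and 7249. The vehicle groups were both retinas of animal 7222 at week 2 and the left retinas of animals 7250 and 7251 at week 4. Animals of week 2 were sacrificed on day 15 and those of week 4 on day 24 or 28. The 2 AAV week 2 samples are thus 1 animal, the strain and sex are the same throughout, and each group carries its own batch label, so that batch cannot be told apart from treatment or week between groups. The comparison of positive with negative nuclei is made inside each retina and its batch.

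A nucleus was counted as Müller when its barcode had at least 1000 UMIs (unique molecular identifiers, each 1 RNA molecule counted), at least 1 UMI of SLC1A3, at least 4 UMIs in sum over SLC1A3, RLBP1, KCNJ10, SOX9 and DKK3, no UMI of PAX2, an astrocyte gene, and at most 2 UMIs in sum over PDE6A, PDE6B, TRPM1, GAD1, GAD2 and PTPRC. The classes were chosen by the CDKN1A count itself, so its own values are a description and get no test: nuclei with at least 1 CDKN1A UMI are called positive and those with none negative. Of 388491 barcodes in the 8 retinas, 187762 came from the AAV retinas, 10960 of these were Müller nuclei, and 1268 of those were positive. The vehicle retinas held 16296 Müller nuclei, of which 1 was positive. Depth was similar across AAV retinas, at 141270145 to 172452743 UMIs per retina. Any pair of the 32 lanes shared 18 to 65 barcode sequences, at most 0.514% of the smaller lane.

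The Müller label was checked against markers that the rule did not use. SPON1 stood at 1263 to 1778 CPM (a gene's UMIs scaled to an equal total of UMIs in each sum) in the AAV Müller nuclei and at 98.1 to 226 CPM in the other barcodes of the same retinas. AQP4, the water channel of Müller end feet, stood at 39.8 to 49.9 against 0.641 to 3.37 CPM, and CLU at 319 to 426 against 46.3 to 68.9 CPM. Some markers of other cells were lower in Müller nuclei and others were not. The cone gene ARR3 stood at 35.1 to 88.2 CPM in Müller nuclei and 473 to 685 CPM elsewhere, and SLC6A9 of glycinergic amacrine cells at 17.2 to 38.5 against 43.2 to 80.4 CPM. The microglia gene P2RY12 was higher in Müller nuclei in 4 of 4 retinas, at 22.0 to 56.1 against 10.2 to 23.2 CPM, as was the endothelial gene PECAM1, at 17.6 to 20.3 against 13.3 to 15.9 CPM. RBPMS of ganglion cells and the microglia gene CSF1R were higher in 2 of 4, and the microglia gene C1QA in 3 of 4. GFAP, listed as an astrocyte marker, was higher in 4 of 4, at 49.2 to 390 against 8.42 to 26.8 CPM. PAX2 was the only astrocyte gene that the rule used to leave nuclei out. WIF1, also listed as a Müller marker, was low in both, at 1.82 to 4.11 CPM in Müller nuclei and 4.28 to 4.75 CPM elsewhere.

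Because p53 acts through DNA, the windows of 3000 bases on each side of the RefSeq gene start (Sscrofa11.1, the build of the files) were searched for the p53 response element, a stretch of 20 bases made of 2 adjacent half-sites of 10 bases. The core of both half-sites had to be kept and up to 2 mismatches were allowed elsewhere. The element reads as itself on the opposite strand, so a single search covers both. The stretches below are those found at CDKN1A and at genes that were higher in positive nuclei, each shown on the strand of its gene with the 2 cores in capitals.
CDKN1A: gaaCATGtcctaaCATGttg
MDM2: ggtCAAGttcggaCAAGttc
ZMAT3: aaaCAAGtccagaCATGtct
PLK2: aaaCATGcccgggCTTGccc
CSNK1G1: aaaCATGttgaggCAAGcct
HSPA4L: aaaCATGtttccaCATGttt
SPIDR: gggCTAGctggggCATGcgc

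The CDKN1A stretch lies at chr7:32352251-32352270 on the plus strand, 2525 bases upstream of the gene start, with 2 mismatches. The MDM2 stretch lies at chr5:33106505-33106524, 788 bases downstream of the gene start and inside the gene, with 1 mismatch. ZMAT3 (chr13:117145996-117146015, minus strand, 1624 bases downstream of the start) and PLK2 (chr16:37306753-37306772, minus strand, 1658 bases upstream) matched with 0 mismatches. CSNK1G1 (chr1:107691120-107691139) had 1 mismatch, and HSPA4L (chr8:97087000-97087019) and SPIDR (chr4:80192569-80192588) had 2. SPIDR held a further match that overlaps the one shown by 10 bases. With up to 2 mismatches, 6 of the 41 genes higher in positive nuclei that had a RefSeq window held a match (14.6%), against 2 of 104 genes that were lower (1.92%), 193 of 8341 tested genes (2.31%) and 409 of 19535 protein-coding genes (2.09%). With 0 mismatches the counts were 2, 0, 3 and 9. A match is a description of letters, not of binding, and genes without one may carry elements outside these windows or of another spelling.

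CDKN1A-positive Müller nuclei were frequent in AAV retinas and close to absent in vehicle retinas. Retina 7221 OS held 169 positive nuclei of 3409 (4.96%, exact 95% interval 4.25 to 5.74), and 7221 OD held 299 of 4798 (6.23%, 5.56 to 6.95). At week 4, 7248 OS held 567 of 1999 (28.4%, 26.4 to 30.4) and 7249 OS 233 of 754 (30.9%, 27.6 to 34.3). No week 2 retina came near either week 4 retina. Vehicle 7251 OS held 1 positive nucleus of 3739 (0.0267%). Vehicle 7222 OS, 7222 OD and 7250 OS held 0 of 5011, 3904 and 3642, which allows shares of up to 0.0599%, 0.0768% and 0.0824% when 3 nuclei are taken as the limit, and the exact 95% intervals reach 0.0736%, 0.0944% and 0.101%.

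The week 4 means were 29.6% ± 1.79 (SD, n = 2 animals) for AAV and 0.0134% ± 0.0189 (SD, n = 2 animals) for vehicle. These shares are the values the classes rest on and are given with no test. Depth differed between the groups compared, with median UMIs per Müller nucleus of 2701 and 3703 in the week 2 AAV retinas, 5200 and 5388.5 in the week 4 AAV retinas and 2194 to 2911 in vehicle. With every nucleus thinned to 1000 UMIs the shares were 1.82% and 2.04% at week 2 and 7.05% and 7.82% at week 4, so the order of the retinas stayed as it was. The intervals cover counting error only.

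Free RNA can put a UMI into a nucleus that does not make the gene. Rod nuclei, taken as barcodes with at least 4 UMIs of PDE6A and PDE6B and none of the 5 Müller genes, had a CDKN1A UMI in 0.149% and 0.108% at week 2 and in 0.326% and 0.263% at week 4, at median depths of 1914 to 2412 UMIs. Müller shares at the same retinas were far above the rod level, also after thinning, where rods stood at 0.0361% to 0.109%. Leaving out rods with a UMI of the 5 Müller genes can lower the rod level. The part of free RNA was not tested. Within each AAV retina the share ranged over the 4 lanes from 3.29% to 6.81% in 7221 OS, 5.17% to 6.85% in 7221 OD, 25.2% to 31.4% in 7248 OS and 28.4% to 34.3% in 7249 OS.

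**Figure D1:**
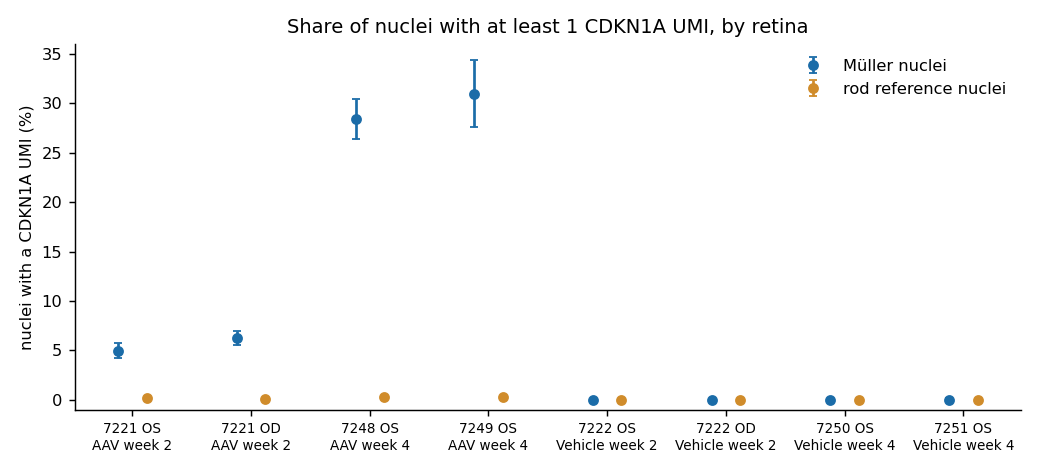
Percent of nuclei with at least 1 CDKN1A UMI (y axis) in each retina (x axis), for Müller nuclei in blue and rod reference nuclei in orange, with exact 95% binomial intervals. AAV week 4 Müller nuclei sit at 28.4% and 30.9%, AAV week 2 at 4.96% and 6.23%, and every vehicle and rod point below 0.35%.

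Most positive nuclei carried a single CDKN1A UMI. In 7221 OS, 150 nuclei had 1 UMI, 15 had 2 and 4 had 3 or more, and in 7221 OD the numbers were 262, 31 and 6. In 7248 OS they were 398, 117 and 52, and in 7249 OS 172, 32 and 29, with 5 as the largest number. Up to 8000 UMIs, deeper nuclei were more often positive in 3 of the 4 retinas. In 7221 OD the share rose from 2.60% of nuclei with 1000 to 2000 UMIs to 10.6% of those with 4000 to 8000, and in 7248 OS from 13.6% to 33.8%. A negative nucleus is therefore one in which no CDKN1A molecule was caught, and some of them will have held the RNA.

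For this reason each positive nucleus was matched to 1 negative nucleus of its own retina in the same bin of total UMIs, bins being 0.25 wide on the log2 scale. This kept 169, 299, 564 and 229 pairs in 7221 OS, 7221 OD, 7248 OS and 7249 OS, 1261 in all, and left out 7 positive nuclei without a partner. Median depth was then 3604 against 3489 UMIs in 7221 OS, 4626 against 4634 in 7221 OD, 5872 against 5850 in 7248 OS and 5796 against 5735 in 7249 OS. UMIs were summed per retina and class, and the 8 sums were tested with edgeR's quasi-likelihood test with the retina as a block. The replicate is the retina, 4 from 3 animals, and CDKN1A and the rule's other genes were left out of the test.

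At a Benjamini-Hochberg adjusted p below 0.05, 50 of 10596 tested genes (0.472%) were higher in positive nuclei and 117 (1.1%) were lower. All 50 higher genes were higher in each of the 4 retinas, and 110 of the 117 lower genes were lower in each, which the test that picked them favors. The median log2 fold change over all tested genes was 0.01. These numbers depended on the pairs drawn, since a further draw of negative nuclei gave 25 higher and 74 lower, of which 23 and 64 were among the first. When nuclei with any UMI of the 6 exclusion genes were removed from both classes, 0 genes passed in either direction with edgeR, although 929 had an unadjusted p below 0.05. The lowest adjusted p was then 0.0659, and all 50 genes and all 94 lower genes that could still be tested kept their sign. Most positive nuclei were in both fits and the first fit picked the genes, so the kept signs are not separate evidence. DESeq2 on the full set of pairs called 26 and 96. Without 7221 OS the counts were 21 and 76, and without 7221 OD 14 and 88. Of 27 higher genes named in the text, MDM2, FGF2, FAT1 and ASCC3 were the 4 that passed in each of 7 refits: another draw, DESeq2, both eyes of 7221 summed, and each retina left out in turn.

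Targets of p53 were among the higher genes. Of 35 listed targets 23 were tested, 20 of them lay above 0, and 8 passed: MDM2, BBC3, SESN2, ZMAT3, PLK2, XPC, RRM2B and ATF3, against the 0.472% of all genes called higher. Their median log2 fold change was 0.72, and 0.68, 0.85, 0.66 and 0.43 in 7221 OS, 7221 OD, 7248 OS and 7249 OS taken singly. None passed as lower. The list was made with earlier results of these data known. The number that passed was 2 without 7221 OD, 2 without 7248 OS, 5 without 7221 OS and 8 without 7249 OS, 4 with both eyes of animal 7221 summed, 3 with DESeq2 and 0 with the exclusion genes at 0, where 15 of 22 had an unadjusted p below 0.05. Over all alternatives the list's median stayed between 0.56 and 1.02.

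MDM2 (chromosome 5, 33105717 to 33137602) had the most counts of these. Positive nuclei stood at 215 CPM in 7221 OS, 191 in 7221 OD, 425 in 7248 OS and 356 in 7249 OS, and their matched negative nuclei at 76.0, 70.3, 195 and 228 CPM. The positive sum was above the negative sum in each retina, but negative sums at week 4 were about as high as positive sums at week 2. Sums do not show the spread over single nuclei, where the classes overlapped. An MDM2 UMI was found in 43.2%, 43.5%, 72.0% and 68.1% of positive nuclei and in 21.9%, 20.4%, 47.5% and 56.8% of negative nuclei. The log2 fold change was 1.13 (SE 0.13, edgeR adjusted p = 0.00108, higher in 4 of 4 retinas). Müller nuclei of the vehicle retinas stood at 24.6 to 32.3 CPM, below every AAV class, including nuclei with no CDKN1A UMI.

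MDM4, which binds p53 and restrains it alongside MDM2, stood at 133, 155, 206 and 113.1 CPM in positive nuclei and 86.9, 111, 109 and 98.1 CPM in negative nuclei in the same order of retinas. Its log2 fold change was 0.58 (SE 0.13, edgeR adjusted p = 0.0398), with a small gap in 7249 OS. The call was lost with another draw (edgeR adjusted p = 0.131), with both eyes of 7221 summed (0.12), with DESeq2 (0.123), and without 7221 OS (0.106), 7221 OD (0.121) or 7248 OS (0.259, log2 fold change 0.42). It was the 1 gene that passed among 11 tested regulators of p53, whose median was 0.04, where 0.472% of all genes passed as higher.

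Targets that act in apoptosis and stress signaling had few counts. BBC3, which encodes the BCL2 family protein PUMA, stood at 13.9, 20.2, 19.1 and 21.6 CPM in positive nuclei and 3.10, 5.80, 8.71 and 13.4 CPM in negative nuclei. It was at most 0.408 CPM in vehicle Müller nuclei. ATF3, a transcription factor of the stress response that is also an AP-1 partner, stood at 7.74, 31.7, 23.0 and 14.1 against 1.55, 5.07, 9.31 and 9.66 CPM, a log2 fold change of 1.49 (SE 0.31, edgeR adjusted p = 0.0341). These are few molecules, 145 ATF3 UMIs in 96 positive nuclei and 52 in 39 negative nuclei, and 37.9% of the positive ones lay in the 5 nuclei of each retina with most of them. PLK2, a polo-like kinase, stood at 7.74, 11.5, 23.9 and 27.5 against 1.55, 3.62, 9.31 and 14.1 CPM (log2 fold change 1.32, SE 0.26, edgeR adjusted p = 0.0232). ZMAT3, an RNA-binding protein, was 1.81-fold higher (edgeR adjusted p = 0.0283). None of these 4 passed with another draw, with DESeq2, or without 7221 OD or 7248 OS. With both eyes of 7221 summed, BBC3 (edgeR adjusted p = 0.0995), ATF3 (0.0921) and PLK2 (0.0517) lost their calls and ZMAT3 kept its own (0.0441).

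Targets that act in DNA repair and metabolism came next. XPC, the damage sensor of nucleotide excision repair, stood at 155, 159, 207 and 230 CPM in positive and 96.2, 101, 147 and 160 CPM in negative nuclei. The ratio was much alike in all 4 retinas, with a log2 fold change of 0.58 (SE 0.10, edgeR adjusted p = 0.0113). RRM2B, the p53-induced subunit of ribonucleotide reductase, stood at 63.4, 69.2, 127 and 132 against 32.6, 47.1, 72.4 and 85.5 CPM (log2 fold change 0.72, edgeR adjusted p = 0.0106). SESN2, a sestrin that restrains mTORC1, had a log2 fold change of 0.65 and, unlike the genes above, was higher in the week 2 retinas than in the week 4 retinas in both classes. SESN2 lost its call in each of the 4 fits without 1 retina, XPC without 7221 OD (edgeR adjusted p = 0.0551) and RRM2B without 7248 OS (0.0805). SESN2 also lost it with both eyes of 7221 summed (edgeR adjusted p = 0.0707).

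Further targets lay on the same side without passing. FAS, the death receptor, stood at 15.5, 16.6, 44.2 and 46.1 CPM in positive and 1.55, 7.24, 27.6 and 23.8 CPM in negative nuclei (log2 fold change 0.96, edgeR adjusted p = 0.0628). CCNG1 had a log2 fold change of 0.98 (adjusted p = 0.101), AEN of 0.90 (adjusted p = 0.0869), TIGAR of 0.83 (adjusted p = 0.104) and TP53INP1 of 0.81 (adjusted p = 0.134), all by edgeR and each higher in 4 of 4 retinas. SESN1, POLH and CD82 were the 3 tested targets below 0, at -0.10, -0.14 and -0.16.

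**Figure D2:**
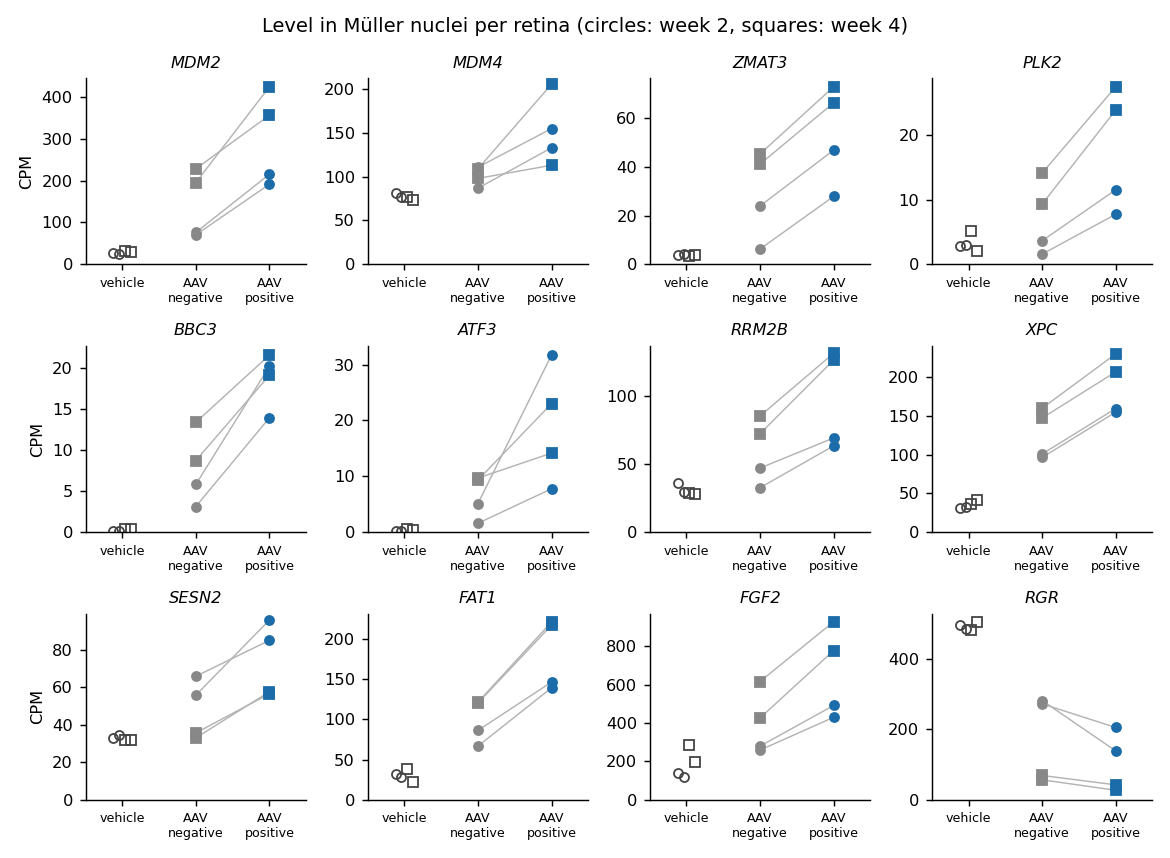
CPM (y axis, starting at 0, 1 panel per gene) in all Müller nuclei of each vehicle retina (open symbols) and in matched negative (grey) and positive (blue) nuclei of each AAV retina, with lines joining the classes of 1 retina. MDM2 rises in each retina, from 76.0, 70.3, 195 and 228 to 215, 191, 425 and 356 CPM, while RGR falls in each.

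MDM2 was also compared by the number of CDKN1A molecules. Its level was 208, 184, 375 and 330 CPM in nuclei with 1 CDKN1A UMI and 281, 383, 587 and 497 CPM in nuclei with 3 or more, in the order 7221 OS, 7221 OD, 7248 OS and 7249 OS. The higher value belonged to the class with 3 or more UMIs in all 4 retinas, but that class held only 4 and 6 matched nuclei in the week 2 retinas and 52 and 28 in the week 4 retinas. With 2 UMIs MDM2 stood at 254, 208, 496 and 330 CPM, about the same as with 1 UMI in 7249 OS. Over each class's own matched negative nuclei, the log2 ratio at 1, 2 and 3 or more UMIs was 1.18, 1.80 and 1.96 in 7221 OD. It was 0.79, 0.99 and 1.96 in 7248 OS and 0.66, 0.27 and 0.94 in 7249 OS. In 7221 OS it went from 1.88 to 1.24 at 2 UMIs, and the negative nuclei of the last class held no MDM2 UMI. Of the other p53 targets that passed, none was higher with 3 or more UMIs than with 1 in all 4 retinas, though each was in some. From 1 to 3 or more UMIs in 7248 OS and 7249 OS, XPC went from 202 and 218 to 231 and 276 CPM. RRM2B went from 121 and 109 to 117 and 176 CPM, and BBC3 from 18.8 and 21.4 to 17.5 and 5.02 CPM. In the week 4 retinas 7248 OS and 7249 OS, FGF2 stood at 712 and 907 CPM with 1 UMI, 823 and 775 CPM with 2, and 1115 and 1133 CPM with 3 or more. MGMT was 587 and 516 CPM with 1 UMI, 608 and 660 CPM with 2, and 665 and 592 CPM with 3 or more there. Both went the other way in 7221 OD, FGF2 from 472 to 447 CPM and MGMT from 644 to 479 CPM, and not in 7221 OS, where FGF2 went from 425 to 515 and MGMT from 597 to 889 CPM. IFIT2 went from 124, 327, 22.8 and 37.6 CPM with 1 UMI to 187, 351, 5.84 and 25.1 CPM with 3 or more, in the order of retinas above. NFKBIA went from 30.5, 76.6, 25.4 and 18.3 to 46.8, 31.9, 8.76 and 10.0 CPM. The last class held few UMIs of either gene. No test was run on these steps.

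Of the 50 higher genes, 36 belong to none of the lists. FAT1, an atypical cadherin, stood at 139, 146, 221 and 217 CPM in positive nuclei and 66.7, 86.2, 121 and 120 CPM in negative nuclei, a log2 fold change of 0.87 (SE 0.10, edgeR adjusted p = 0.00108). POLK, a translesion polymerase, had a log2 fold change of 0.63, ASCC3, a helicase that serves alkylation repair and stalled ribosomes, of 0.68, and LMNA, a protein of the nuclear lamina, of 0.79 (edgeR adjusted p = 0.0173, 0.00347 and 0.0297). HSPA4L, a chaperone of the HSP110 family, CSNK1G1, a casein kinase, and SPIDR, a scaffold of homologous recombination, whose matches to the response element are printed above, had 0.83, 0.54 and 0.65. These were singled out after their values were seen, as were FAT1 and MGMT. Of these, HSPA4L lost its call without 7248 OS, POLK without either week 2 retina, SPIDR without either week 4 retina, LMNA without any 1 retina and CSNK1G1 without 7221 OS, 7221 OD or 7248 OS. With both eyes of 7221 summed, POLK, LMNA and CSNK1G1 lost theirs too (edgeR adjusted p = 0.0704, 0.0543 and 0.105). MGMT, which removes alkyl groups from guanine, stood at 613, 651, 602 and 552 CPM in positive nuclei. The negative nuclei stood at 195, 258, 436 and 439 CPM and vehicle nuclei at 33.9 to 57.3 CPM. Its call was lost with another draw, with both eyes of 7221 summed (edgeR adjusted p = 0.127) and without either week 2 retina. The positive level was nearly the same in the 4 retinas, and the gap to the negative nuclei was wider at week 2. The log2 fold changes were 1.46 at week 2 alone and 0.42 at week 4 alone, with a tested difference of -1.03 (edgeR adjusted p = 4.48e-05). Both week 2 retinas are of 1 animal, so week, animal and batch cannot be told apart in this difference.

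The other genes with the largest rises were of mixed kinds. JAG1, a Notch ligand, stood at 7.74, 3.61, 35.2 and 24.6 CPM in positive and 3.10, 0.724, 14.7 and 12.6 CPM in negative nuclei (log2 fold change 1.22, edgeR adjusted p = 0.0332). The call was lost with another draw (0.84, adjusted p = 0.251), with DESeq2 (adjusted p = 0.425), and without any 1 retina (edgeR adjusted p = 0.0575 to 0.288), and JAG1 passed in 6 of 18 alternatives. It was the 1 gene that passed of 17 tested neurogenic and Notch genes of Müller glia, whose median was 0.01, where 0.472% of all genes passed as higher. CCT7, a chaperonin subunit, VASH2, a vasohibin, and PDLIM1, a LIM protein of the actin cytoskeleton, had log2 fold changes of 0.97, 0.95 and 0.95. VASH2 lost its call without any 1 retina, CCT7 without 7221 OD or 7249 OS, and PDLIM1 without 7248 OS. With both eyes of 7221 summed, JAG1 (edgeR adjusted p = 0.0573), VASH2 (0.06) and PDLIM1 (0.0527) lost theirs too. PDLIM1 was far above vehicle in both classes at week 4, at 110 and 107 CPM in positive nuclei, 57.4 and 72.1 CPM in negative nuclei and 2.14 to 3.83 CPM in vehicle. The unnamed genes ENSSSCG00000051466 and ENSSSCG00000041874 rose by 1.10 and 0.95. The former lost its call without either week 2 retina and with both eyes of 7221 summed (edgeR adjusted p = 0.11), and the latter without 7248 OS.

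No tested partner of p21 in the cell cycle passed over the 4 retinas, where 0.472% of all genes passed as higher and 1.1% as lower. In lists this short, 0 calls are near those shares. AAV week 2 alone, given below, is both eyes of 1 animal. Of 17 listed CDK inhibitors, cyclins, CDKs and RB family genes 8 were tested, 0 passed and 1 had an unadjusted p below 0.05, with a median log2 fold change of 0.13. CDKN2B, the INK4 inhibitor p15, was the largest at 0.60 (edgeR adjusted p = 0.236). Of 25 E2F and mitosis genes 4 had enough counts to be tested by edgeR, 0 passed and 1 had an unadjusted p below 0.05, while 1 of 2 passed as higher in AAV week 2 alone (4.19% of all genes) and 1 of 4 in AAV week 4 alone (1.19%). Of 17 tested DNA damage signaling genes 0 passed, with 1 each way at an unadjusted p below 0.05 and a median of 0.03. In AAV week 2 alone 2 of 15 passed in edgeR as higher (4.19% of all genes), with a median of 0.12, and in AAV week 4 alone 0 of 17 passed, also at an unadjusted p below 0.05, with a median of 0.05.

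EGFP RNA of the vector was found in both classes. In 7221 OS 11.8% of positive and 9.47% of negative nuclei had an EGFP UMI (exact 95% intervals 7.38 to 17.7 and 5.51 to 14.9), and in 7221 OD 16.4% and 14.7%. In 7248 OS the shares were 14.9% (12.1 to 18.1) and 6.56% (4.66 to 8.93), and in 7249 OS 3.49% (1.52 to 6.77) and 5.68% (3.06 to 9.51). The share was higher in positive nuclei in 3 of 4 retinas, and the intervals cover counting error over nuclei only. Most nuclei of either class had no EGFP UMI, and the log2 fold change was 0.55 (SE 0.29, edgeR adjusted p = 0.494). In AAV week 4 alone it was 1.11 (edgeR adjusted p = 0.00462), in AAV week 2 alone 0.11 (adjusted p = 0.914), and without 7248 OS -0.016. The week 4 fit holds only 7248 OS and 7249 OS, whose shares went opposite ways. Its p does not measure the spread over animals. EGFP was 0 CPM in Müller nuclei of all 4 vehicle retinas.

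**Figure D3:**
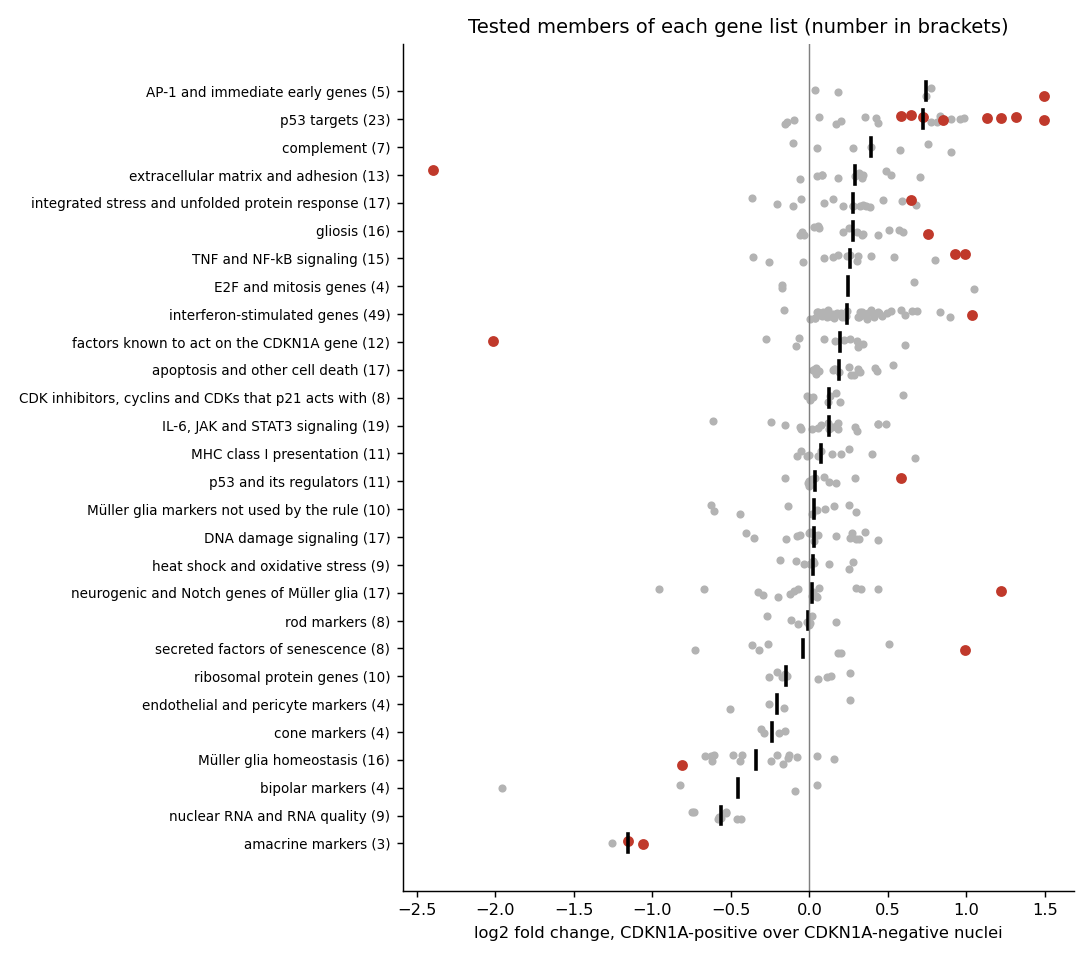
Log2 fold change of positive over negative nuclei (x axis) for every tested gene of each list with at least 3 tested genes (y axis, number tested in brackets), with red points for genes past the edgeR adjusted threshold, grey points for the others and a black bar at the median. The p53 targets have a median of 0.72 with 8 red points, and the interferon-stimulated genes a median of 0.24 with 1.

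Interferon-stimulated genes, the antiviral genes that type I and II interferons switch on, stood above vehicle in both classes, and the gap between the classes was wider at week 2. Their summed level was 17656 against 11659 CPM in positive and negative nuclei of 7221 OS, 24767 against 18710 in 7221 OD, 9422 against 8922 in 7248 OS and 12012 against 11672 in 7249 OS. Vehicle Müller nuclei stood at 478 to 559 CPM. Over the 4 retinas together 48 of 49 tested genes lay above 0 with a median log2 fold change of 0.24, and 1 passed, IFIT2, where 0.472% of all genes passed as higher, while 24 had an unadjusted p below 0.05. In AAV week 2 alone the median was 0.45, 46 of 48 genes lay above 0 and 22 passed, where 4.19% of all 9574 tested genes passed as higher and 4.31% as lower, and where both samples are eyes of 1 animal. Calls in a fit of 2 eyes of 1 animal do not measure spread over animals. In that fit all 9 tested mitochondrial genes passed as lower (median -1.64). The 10 tested ribosomal protein genes had a median of -0.55, with 1 passing as lower. The part of both in the interferon values was not tested. In AAV week 4 alone the median was 0.05, 37 of 49 lay above 0 and 1 passed, where 1.19% of 12635 genes passed as higher and 2.7% as lower. With both eyes of 7221 summed, without 7221 OS or without 7221 OD, 0 passed by edgeR and 10, 8 and 10 had an unadjusted p below 0.05.

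IFIT2, an RNA-binding antiviral protein, shows the values of a single gene. Positive nuclei stood at 125, 335, 20.9 and 37.9 CPM and negative nuclei at 37.2, 135, 15.9 and 26.8 CPM in the order 7221 OS, 7221 OD, 7248 OS and 7249 OS. The log2 fold change was 1.03 (SE 0.19, edgeR adjusted p = 0.0168). The call was lost with both eyes of 7221 summed (edgeR adjusted p = 0.0821), without 7221 OS (0.0617), without 7221 OD (0.255) and in AAV week 4 alone (0.46, adjusted p = 0.513). IRF1, a transcription factor that interferon gamma induces, had a log2 fold change of 0.61 (edgeR adjusted p = 0.115). Of 11 tested genes of MHC class I presentation 0 passed, where 0.472% of all genes passed as higher. By edgeR 1 had an unadjusted p below 0.05, and the median was 0.07.

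The difference of the class effect between weeks was tested as an interaction. It was more positive at week 4 for 114 of 10596 genes (1.08%) and more negative for 158 (1.49%). Of the 49 interferon-stimulated genes, 13 passed with a smaller effect at week 4 and 0 with a larger one. The effect was also more negative at week 4 for 2 of 7 complement genes and for 2 of 17 genes in each of the lists of integrated stress and unfolded protein responses, DNA damage signaling and cell death. A single gene passed in that direction of 15 TNF and NF-kB genes, 19 IL-6, JAK and STAT3 genes, 12 factors known to act on the CDKN1A gene, 4 E2F and mitosis genes and 4 bipolar markers. The effect was more positive at week 4 for 9 of 9 mitochondrial genes, for 2 of 16 homeostasis genes, and for 1 gene each of 17 neurogenic and Notch genes, 13 extracellular matrix genes, 10 other Müller markers, 2 ganglion cell markers and 4 endothelial and pericyte markers. OASL, an antiviral oligoadenylate synthetase-like protein, stood at 74.3 against 10.9 CPM in 7221 OS and 125 against 26.1 CPM in 7221 OD, but at 34.9 against 27.0 and 55.8 against 77.3 CPM in 7248 OS and 7249 OS. RSAD2, the antiviral enzyme viperin, stood at 353 against 124 and 637 against 319 CPM at week 2 and at 91.1 against 90.7 and 376 against 376 CPM at week 4. These genes were singled out after their values were seen. None of the 23 tested p53 targets passed in this edgeR test in either direction, with 3 at an unadjusted p below 0.05 and a median difference of -0.31. The median difference of the interferon-stimulated genes was about the same, at -0.32, with 23 lower at an unadjusted edgeR p below 0.05. The lists thus differed in how many genes passed more than in the median. Week 2 is 1 animal with both eyes, so week, animal and batch cannot be told apart here, and the counts were 28 and 63 with another draw of negative nuclei and 52 and 63 without 7249 OS.

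**Figure D4:**
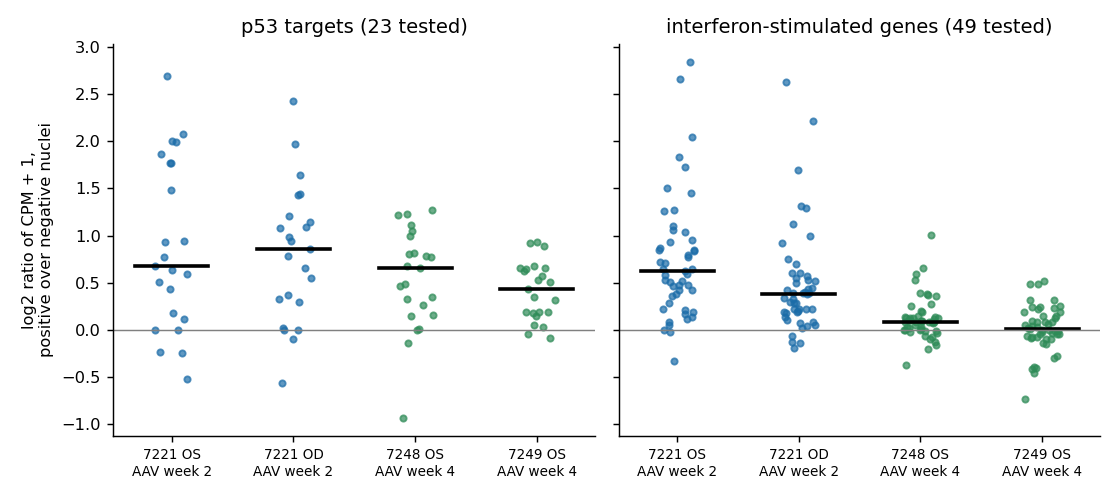
Log2 ratio of CPM + 1 in positive over negative nuclei (y axis) for each tested p53 target (left) and interferon-stimulated gene (right) in each AAV retina (x axis), with black bars at the medians. The p53 targets have medians of 0.68, 0.85, 0.66 and 0.43, and the interferon-stimulated genes 0.62, 0.38, 0.09 and 0.01.

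Inflammatory and gliotic genes gave single calls. NFKBIA, the inhibitor that NF-kB induces against itself, stood at 32.5, 79.3, 26.9 and 17.1 CPM in positive and 18.6, 34.8, 17.1 and 8.17 CPM in negative nuclei (log2 fold change 0.92, edgeR adjusted p = 0.0283). CCL2, a chemokine for monocytes, stood at 12.4, 41.1, 38.2 and 20.1 against 3.10, 21.01, 20.4 and 10.4 CPM (log2 fold change 0.99, edgeR adjusted p = 0.0285) and was at most 0.417 CPM in vehicle. These were the 2 that passed of 15 tested TNF and NF-kB genes, whose median was 0.26, where 0.472% of all genes passed as higher. In AAV week 2 alone, both eyes of 1 animal, their median was 0.73 and 6 of 13 passed as higher, against 4.19% of all genes. In AAV week 4 alone it was 0.06, with 2 of 15 passing as higher against 1.19% of all genes, and VCAM1 as lower against 2.7%. NFKBIA passed in 7 of 20 alternatives and CCL2 in 9 of 20, and neither did with another draw (edgeR adjusted p = 0.0624 and 0.0862), with DESeq2, or without 7221 OS, 7221 OD or 7249 OS, and CCL2 not without 7248 OS. CCL2 is also listed among the secreted factors of senescence, of which 8 were tested with a median of -0.04 and no other passed. NFKB1 itself had a log2 fold change of 0.24 (edgeR adjusted p = 0.472).

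FGF2, a growth factor that Müller glia make after injury, was the 1 gene of 16 tested gliosis genes that passed, where 0.472% of all genes passed as higher. Of the 16, 13 lay above 0 with a median of 0.28, and 5 were higher at an unadjusted edgeR p below 0.05. The list's summed level was higher in positive nuclei in 4 of 4 retinas. In AAV week 2 alone, both eyes of 1 animal, 2 of 14 passed as higher (4.19% of all genes) and in AAV week 4 alone 3 of 16 (1.19%). FGF2 stood at 430, 492, 778 and 929 CPM in positive and 259, 280, 427 and 617 CPM in negative nuclei, and at 119 to 284 CPM in vehicle. The log2 fold change was 0.76 (SE 0.09, edgeR adjusted p = 0.00113), nearly the same at both weeks. FGF2 passed in 18 of 22 alternatives, over which its log2 fold change ranged from 0.18 to 1.01. GFAP, the intermediate filament of reactive glia, was at 105, 56.2, 378 and 295 CPM in positive and 82.2, 49.98, 422 and 282 CPM in negative nuclei, with a log2 fold change of 0.06 (SE 0.11, edgeR adjusted p = 0.902). VIM had a log2 fold change of 0.25 and STAT3 of 0.30, with edgeR adjusted p of 0.465 and 0.345.

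The remaining stress lists gave few calls over the 4 retinas, where 0.472% of all genes passed as higher. AAV week 2 alone, given below for these lists, is both eyes of 1 animal. ATF3 was the 1 gene that passed of 5 tested AP-1 genes, all 5 above 0 with a median of 0.74, although in 7221 OS the median log2 ratio was -0.12 and their list summed to 97.5 CPM in positive against 152 CPM in negative nuclei. In AAV week 4 alone 2 of 5 passed as higher (1.19% of all genes) with a median of 0.83. In AAV week 2 alone 0 of 2 did (4.19%), with a median of 0.37. SESN2 was the 1 that passed of 17 genes of the integrated stress and unfolded protein responses, with a median of 0.28. That median was 0.58 in AAV week 2 alone, where 4 of 15 passed as higher (4.19% of all genes), and -0.06 in AAV week 4 alone, where 1 of 17 did (1.19%). All 17 tested cell death genes lay above 0 with a median of 0.19, where 0 passed in edgeR and 3 had an unadjusted p below 0.05. Their median was 0.28 in AAV week 2 alone, with 3 of 15 passing as higher (4.19% of all genes), and 0.12 in AAV week 4 alone, where 11 of 17 lay above 0, 0 passed in edgeR and 1 had an unadjusted p below 0.05, as lower. Of 7 tested complement genes 6 lay above 0 with a median of 0.39, and 0 passed and 2 had an unadjusted p below 0.05. Without the filter on low counts 8 of 19 lay above 0 and the median was -0.24. Their median with the filter was 0.96 in AAV week 2 alone, with 4 of 6 passing as higher (4.19% of all genes), and 0.21 in AAV week 4 alone, with 0 of these 7 passing in edgeR and 2 at an unadjusted p below 0.05, while C1QB, C3 and C3AR1, which had too few counts for the test over the 4 retinas and are named after their values were seen, passed there as lower (2.7% of all genes). Of 12 tested factors known to act on the CDKN1A gene, RUNX1 passed as lower, where 1.1% of all genes did (log2 fold change -2.01, edgeR adjusted p = 0.0187), with 0 CPM in both classes of 7221 OD, no call with another draw or without either week 4 retina, and 62.9% of its negative-class UMIs in 5 nuclei of each retina.

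Genes of the normal work of Müller glia mostly lay below 0. Of 16 tested homeostasis genes 14 did, the median was -0.34, and 1 passed, against 1.1% of all genes called lower, while 8 had an unadjusted p below 0.05. In AAV week 2 alone, both eyes of 1 animal, 5 of 16 passed as lower (4.31% of all genes), with a median of -0.46. In AAV week 4 alone 3 of 16 did (2.7%), with a median of -0.22 and 5 genes above 0. RGR, an opsin that takes part in retinal recycling, stood at 206, 139, 26.9 and 42.4 CPM in positive and 273, 283, 56.8 and 69.1 CPM in negative nuclei, with a log2 fold change of -0.81 (SE 0.13, edgeR adjusted p = 0.00734), and an adjusted p of 0.0524 by edgeR without 7221 OD. Vehicle Müller nuclei stood at 483 to 505 CPM, above every AAV class. TF, which encodes transferrin, had -0.48 (edgeR adjusted p = 0.0576) and APOE, a lipid carrier, -0.63 (adjusted p = 0.0673), each lower in 4 of 4 retinas without passing. AQP4 had 0.16 (edgeR adjusted p = 0.757). The summed level of the list was lower in positive nuclei in all 4 retinas, from 1955 against 1998 CPM in 7249 OS to 2160 against 3293 CPM in 7221 OD.

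The genes with the largest falls in positive nuclei had their molecules in few nuclei, and several are known from neurons. TRHDE, a peptidase, had the largest fall, a log2 fold change of -4.24, at 13.9, 8.65, 1.79 and 1.49 CPM in positive and 268, 78.2, 58.0 and 60.9 CPM in negative nuclei. Its 556 UMIs in negative nuclei came from 41 of 1261 nuclei, and 94.2% of them from the 5 nuclei of each retina with most, 20 in all. KCNIP4, which encodes a potassium channel subunit, and MYT1L, a neuronal transcription factor, had log2 fold changes of -2.15 and -2.39, with 52.6% and 55.2% of their negative-class UMIs in such nuclei. Over the 117 genes the median of that share was 50% and 58 genes were above 50%. Over the 50 higher genes the median share, taken in positive nuclei, was 13.0% and 0 were above 50%, and over all tested genes it was 21.2% in negative and 20.99% in positive nuclei. When nuclei with a UMI were counted in place of UMIs, 31 genes were lower and 64 higher.

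**Figure D5:**
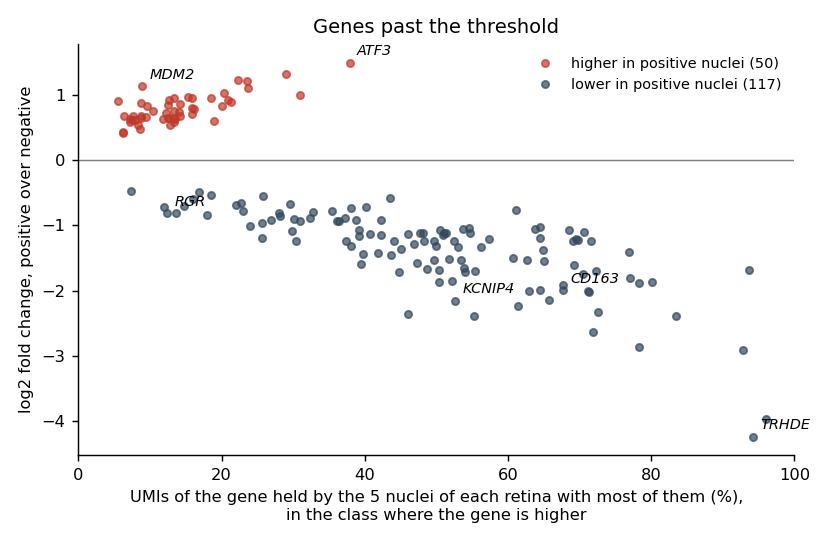
Log2 fold change (y axis) of the 167 genes past the threshold against the percent of the gene's UMIs held by the 5 nuclei of each retina with most of them (x axis), taken in the class where the gene is higher. Genes higher in positive nuclei (red, 50) lie between 5.52% and 37.9%, and genes lower (dark, 117) between 7.38% and 96.0%.

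Some markers of other cells were also lower in positive nuclei. Of 3 tested amacrine markers 2 passed as lower (1.1% of all genes), and 4 of the 8 with a UMI lay above 0 without the filter on low counts. The 2 were SLC6A9 (log2 fold change -1.16) and MEIS2 (-1.06). SLC6A9 lost its call without 7221 OS, 7248 OS or 7249 OS, and MEIS2 with another draw or without 7221 OD. The summed level of 8 amacrine markers was 20.1 to 85.1 CPM in positive against 60.2 to 220 CPM in negative nuclei, lower in 4 of 4 retinas. The 9 bipolar markers summed to 366 to 648 against 509 to 954 CPM, also lower in 4 of 4, with 0 of 4 tested passing in edgeR and 2 lower at an unadjusted p below 0.05, while 2 of 4 passed as lower in each week alone (4.31% and 2.7% of all genes). The 10 rod markers in the files summed to 303 to 671 against 331 to 541 CPM, with 4 of 8 tested genes above 0 and 0 passing, also at an unadjusted p below 0.05. CD163, a scavenger receptor of macrophages, was at 0, 0, 11.05 and 15.6 CPM in positive and 1.55, 0, 46.3 and 59.4 CPM in negative nuclei, where its 235 UMIs came from 30 nuclei. The 11 microglia and macrophage markers together summed to 15.1 to 68.5 against 24.6 to 180 CPM, lower in positive nuclei in 3 of 4 retinas. Summed astrocyte markers were higher in positive nuclei in 3 of 4 retinas, and those of ganglion cells, horizontal cells, lymphocytes and endothelial cells in 2 of 4 each. Summed cone markers were higher in positive nuclei in 1 of 4 retinas, with 0 of 7 genes above 0 without the filter, and pigment epithelium markers in 0 of 4. A UMI of an exclusion gene was found in 23.1%, 13.0%, 14.7% and 15.3% of positive and 26.0%, 18.7%, 21.5% and 24.5% of negative nuclei. Barcodes holding 2 nuclei were not removed by a caller, and their part in the falls was not tested.

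Mitochondrial transcripts, which mark cytoplasm left on nuclei, did not differ between the classes in the same way in all retinas. The 9 mitochondrial genes listed as quality markers summed to 3172 against 5767 CPM in positive and negative nuclei of 7221 OS and 821 against 4523 in 7221 OD, but to 971 against 354 in 7248 OS and 212 against 207 in 7249 OS. The median share per nucleus lay the other way in 7221 OS, at 0.0397% in positive and 0.0235% in negative nuclei. All 9 passed the test of the difference between weeks, and 0 passed in the edgeR comparison over 4 retinas, also at an unadjusted p below 0.05. Their UMIs too sat in few nuclei, since for ATP6 82.5% of the negative-class UMIs lay in 5 nuclei per retina. With nuclei of more than 0.5% mitochondrial UMIs removed, 44 genes were higher and 137 lower, and the difference between weeks for ATP6 was -0.0789 in place of 3.04 (log2).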

How the data were processed

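The authors aligned the reads with Cell Ranger 8.0.0 to Sscrofa11.1 (Ensembl release 113) with EGFP added, and deposited filtered matrices of raw UMI counts per gene and barcode, 4 lanes per retina and 35683 genes. The smallest barcode held 500 UMIs. Here the rule given in the report selected the nuclei. Positive and negative nuclei were paired 1 to 1 within retina and depth bin (0.25 on the log2 scale, seed 1), summed per retina and class, filtered with edgeR's filterByExpr, scaled by TMM and tested with edgeR 4.0.16 (quasi-likelihood, retina as block, which pairs the sums by construction; R 4.3.3) and with DESeq2 1.42.0 as alternative. P-values were adjusted by Benjamini-Hochberg over all genes tested, and the code was tested on simulated data. For 1 week alone, list members were counted only where the gene was also tested over the 4 retinas. The shares beside those counts are over all genes tested in that week. CPM are raw counts over the class total. Symbols are the files' own, with 77 taken from a table of gene names. The 4 retinas, 2 of them from 1 animal, limit the precision. Fits of 1 week alone hold 2 retinas and called more genes than the fit of all 4. Their calls say little about spread over animals.

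The members, gene lists and tests were chosen with earlier results of these data known. Genes named are EGFP, the 12 largest rises and falls past the threshold with one direction in 4 retinas and at least 100 UMIs, up to 5 called genes per list, a few fixed genes of the p53, STAT and gliosis pathways, and the 5 with smallest p each way between weeks. Others are said to be chosen after their values were seen, and further members of the lists are given as list members. GLUL, fixed as well, was not matched by symbol. Some genes that this rule names are not reported here.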

Additional observations from a re-analysis of the deposited data

Results flagged for a closer look

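The class effect differed between weeks for 114 genes in the direction of week 4 and for 158 in the direction of week 2, by the interaction test in edgeR over all 10596 genes. The 5 smallest p-values toward week 4 belonged to RBFOX1, an RNA-binding protein of neurons, with a difference in log2 fold change of 1.93, and to the mitochondrial genes ATP6 (3.04), ND4 (2.73), COX2 (2.71) and COX3 (2.76). RBFOX1 passed in 11 of 20 alternatives and fell to 0.40 with bins of 0.1 (edgeR adjusted p = 0.557), 0.21 within lanes (0.787), 0.37 with at least 2 CDKN1A UMIs (0.894), 1.08 with at least 2000 UMIs (0.317) and 0.16 with nuclei in place of UMIs (0.941). The 4 mitochondrial genes passed in 11 to 13 of 19 or 20, and all 4 lost their calls in edgeR with another draw, with at least 2 CDKN1A UMIs and with mitochondrial shares of at most 0.5%. RBFOX1 stood at 438 against 1453 CPM in positive and negative nuclei of 7221 OS, 235 against 672 in 7221 OD, 279 against 209 in 7248 OS and 43.2 against 48.3 in 7249 OS.

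The 5 smallest toward week 2 belonged to GRIK1, a kainate receptor subunit (-3.08), TMCC3 (-1.97), SMCHD1, a chromatin protein (-1.36), GNB4, a G protein subunit (-3.90), and GREB1L (-1.57). These passed in 12 to 15 of 17 to 20 alternatives. All 10 genes named here for either direction lost their calls in edgeR without the replicate block and with exclusion genes at 0, as did the 8 that could be tested with at least 2 CDKN1A UMIs and the 5 with at most 1 UMI of other-cell markers. With nuclei in place of UMIs 1 of the 10 passed. All 10 differences kept their sign without each retina in turn. In those fits 1 week rests on a single retina, so passing there does not measure spread over retinas. The counts of alternatives passed include these fits. SMCHD1 was at 426 against 197 and 1123 against 426 CPM at week 2 and at 191 against 207 and 212 against 224 CPM at week 4. GREB1L was at 319 against 88.4 and 332 against 104 CPM at week 2 and at 114 against 96.7 and 55.8 against 58.7 CPM at week 4. GRIK1 was at 16.7 against 152 and 2.23 against 143 CPM at week 4, where 86.1% of its negative-class UMIs over the 4 retinas lay in 5 nuclei of each retina. Week 2 is a single animal, and animal, week and batch cannot be told apart.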

How the results depend on the processing

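The share of positive nuclei at week 4 stayed above vehicle under all alternatives, by 7.44 to 31.1 percentage points. Against 50 higher and 117 lower genes, higher genes were 26 with DESeq2, 20 with sums per animal, 18 with at least 2 CDKN1A UMIs and 96 with all negative nuclei weighted by depth bin, and lower genes were 77 with bins of 0.1 and 31 with nuclei in place of UMIs. Both counts moved without a filter on low counts (224 and 358), with another draw (25 and 74), in AAV week 2 alone (401 and 413) and in AAV week 4 alone (150 and 341). Leaving out 1 retina gave 14 to 50 higher and 76 to 116 lower genes, the lowest without 7221 OD and 7221 OS. Without the replicate block, which ties both classes of a retina, 0 passed in each direction for both tests, by edgeR, with 348 and 528 genes at an unadjusted p below 0.05. The counts were also 0 with exclusion genes at 0 (929 and 851 unadjusted) and with at most 1 UMI of other-cell markers (140 and 108), which left 131 pairs and 2127 genes. The difference between weeks, 114 and 158 genes, gave 25 and 25 with DESeq2, 28 and 63 with another draw, 36 and 51 with bins of 0.1, 45 and 76 within lanes, 5 and 7 with at least 2 UMIs, 34 and 73 with mitochondrial shares of at most 0.5%, 28 and 47 with at least 2000 UMIs and 7 and 13 with nuclei. It gave 253 toward week 2 with sums per animal, 58 toward week 4 with weighting, and 52 to 141 and 63 to 159 without 1 retina, lowest without 7249 OS. The causes were not tested. The settings on other-cell markers, weighting and nuclei in place of UMIs were chosen after seeing the data. No alternative could be run inside vehicle retinas, which held 1 positive nucleus. Signs turned for MDM4 (-0.23), GFAP (-0.20) and VIM (-0.24) with at most 1 other-cell UMI, GFAP also at -0.13 with at least 2 CDKN1A UMIs, -0.035 with nuclei and -0.050 in week 4, VIM at -0.014 and RUNX1 at 0.083 in week 2, and NFKB1 at -0.00135 in week 4. Leaving out 1 retina gave EGFP at -0.016 (without 7248 OS) to 0.86. It passed in week 4 alone (1.11), where the shares of the 2 retinas went opposite ways. Between weeks ATP6 was -0.19 with at least 2 UMIs and -0.0789 with low mitochondrial share, and COX2 was -0.15 with at least 2 UMIs, -0.077 with exclusion genes at 0 and -0.62 with few other-cell UMIs.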
